A study of Mus musculus with 8 samples.

Results

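The Tob and Btg genes encode the antiproliferative family of vertebrates, and 5 of them, Tob1, Tob2, Btg1, Btg2 and Btg3, were followed here in mouse quadriceps muscle. The members were selected by symbol from the first column of the deposited count table, and all 5 listed symbols were among its 12171 genes. They were chosen with the difference between the groups already known, so their values in that comparison are a description and carry no test. The table held 8 libraries, each from the quadriceps of a different mouse, with 4 mice in each of 2 groups. All mice were male C57BL/6J animals that were 6 weeks old on arrival, rested for 1 week and then received D-galactose (D-gal), a sugar given to speed up ageing, at 100 mg/kg each day for 12 weeks. The D-gal+MSCs mice had 1000000 mesenchymal stromal cells (MSCs) from human umbilical cord injected into the hind-limb muscles, quadriceps included, 6 times at intervals of 7 days. The D-gal+PBS mice had the same volume of phosphate-buffered saline. No mouse in the table was without D-gal, so every value refers to MSC injection on a D-gal background.

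Tob and Btg proteins share an N-terminal domain that binds the deadenylase subunits Cnot7 and Cnot8 of the CCR4-NOT complex. Through it they bring poly(A) tail shortening to chosen mRNAs, and forced expression of family members slows entry into S phase in cultured cells. Tob1 and Tob2 carry a long C-terminal part that also binds the cytoplasmic poly(A)-binding protein, and Tob1 has been linked to the dampening of BMP and SMAD signalling. Btg2 is an immediate early gene and a p53 target, Btg1 is a target of FoxO factors and a binding partner of the arginine methyltransferase Prmt1, and Btg3 is a p53 target that has been reported to bind E2F1.

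The promoters of 2 members are shown first, Tob1 because its transcript stood apart between the groups and Btg2 because its transcript varied most within them. Each run is the 250 bases before the RefSeq start on GRCm38.p6, read 5′ to 3′ on the strand of the gene, with capitals for CCAAT boxes on either strand (CCAAT or ATTGG) and for the cyclic AMP response element (CRE, TGACGTCA). The Tob1 window is chr11:94211204-94211453 on the plus strand and the Btg2 window is chr1:134079156-134079405 on the minus strand.
Tob1: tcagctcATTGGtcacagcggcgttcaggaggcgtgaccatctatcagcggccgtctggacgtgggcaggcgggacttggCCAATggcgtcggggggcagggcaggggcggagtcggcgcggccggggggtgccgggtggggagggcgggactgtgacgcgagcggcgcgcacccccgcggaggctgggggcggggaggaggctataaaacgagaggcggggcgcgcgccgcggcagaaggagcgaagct
Btg2: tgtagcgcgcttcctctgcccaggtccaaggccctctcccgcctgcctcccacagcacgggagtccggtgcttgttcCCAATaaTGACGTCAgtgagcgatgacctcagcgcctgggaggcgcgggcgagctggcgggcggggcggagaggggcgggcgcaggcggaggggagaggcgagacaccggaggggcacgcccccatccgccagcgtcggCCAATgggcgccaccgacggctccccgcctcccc

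All 5 members had a promoter window, and 10 motifs were searched in it on both strands. The CRE was found in the Btg2 window, 166 bases before the start, and in no window of the other 4 members. Among all 32841 promoter windows of the same length, 1.55% held it. The bases just after the RefSeq start were in no GENCODE vM21 transcript of Btg2, unlike those of Tob1, Tob2 and Btg1. Distances in the Btg2 window therefore rest on the RefSeq start alone. A CCAAT box was present 2 times each in the Tob1 and Btg2 windows and 1 time each in the Btg1 window and both Btg3 windows, and 33.9% of all windows held at least 1. The Btg1 window held a FoxO motif (GTAAACA) 204 bases before the start, as did 3.17% of all windows. The Tob2 window held the GC box (GGGCGG) 2 times and none of the other 9 motifs. The GC box was also present 3 times each in the Tob1 and Btg2 windows, 2 times in the Btg1 window and 2 times in 1 of the 2 Btg3 windows, and 32.7% of all windows held it. The Tob2 window lies within an exon of a longer Tob2 transcript in GENCODE vM21 and is therefore not printed. A TATA box (TATAAA) stood in the windows of Tob1 and Btg1 and in 12.4% of all windows. The AP-1 motif (TGANTCA, 6.75% of all windows), the E-box (CACGTG, 6.02%), the EGR motif (GCGTGGGCG, 0.536%), the NBRE of NR4A receptors (AAAGGTCA, 1.34%) and the CArG box (1.47%) were in no member's window. A match is a match of letters and was not tied to binding by any measurement here.

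The libraries held 32772221 to 40057968 counts, and the 5 members had between 232 and 20694 counts in each. Levels are given as CPM, counts scaled to a library of 1000000, after scaling by the trimmed mean of M-values (TMM). Transcripts encoded by mitochondrial DNA took 13.9 to 18.6% of counts in the D-gal+PBS mice and 22.6 to 36.6% in the D-gal+MSCs mice, without overlap, and the TMM factors ran from 0.958 to 1.14 and from 0.76 to 1.01. On the principal components of log2 CPM, D-gal+MSCs replicate 4 lay at the far end of the first (27.5% of variance) and D-gal+PBS replicate 4 at the far end of the second (21.1%). All 14 listed skeletal muscle fibre markers were measured, so the tissue label was borne out. They summed to 116874 to 152336 CPM in the D-gal+PBS mice and 100281 to 122654 CPM in the D-gal+MSCs mice. Their median log2 fold change was -0.18, with 10 negative and 4 positive. Macrophage markers summed to 122 to 198 CPM in the D-gal+PBS mice and 72.1 to 179 CPM in the D-gal+MSCs mice, with 4 of 12 lower at the looser threshold defined further on. Over all genes 3.06% were lower and 3.76% higher at that threshold, which applies to each marker list here. Of the 12 macrophage log2 fold changes 11 were negative, and that of Cd68 was 1.05. Fibro-adipogenic markers summed to 1725 to 3056 and 976 to 2234 CPM, with 4 of 9 lower, and endothelial markers to 432 to 825 and 615 to 1098 CPM, with 2 of 10 higher. Among fibre markers, the myosin heavy chains Myh1 and Myh2 and myoglobin (Mb) were higher and Actn3, Mybpc2 and Pvalb lower. Red blood cell markers summed to 180 to 575 and 38.4 to 223 CPM, with 1 of 5 lower. Smooth muscle and pericyte markers summed to 798 to 863 and 841 to 1189 CPM, with 0 of 8 past the threshold. Of these 8, 6 had positive and 2 negative log2 fold changes. Pdgfrb and Notch3, named after their values were seen, were higher without overlap, against 3.09% of all genes. Satellite cell markers summed to 214 to 253 and 172 to 238 CPM, also with 0 of 8 past the threshold. Adipocyte markers summed to 274 to 646 and 271 to 488 CPM, with 0 of 7. The adipocyte median log2 fold change was -2.49, with 5 genes negative and 2 positive. Its marker Cfd stood at 196 CPM in D-gal+PBS replicate 2 and at 0 to 21.5 CPM in the other mice. Of the lymphocyte list 1 of 14 genes was in the table (Ptprc), and of the neutrophil list 0 of 8. The part of these shifts in the values below was not tested, and in bulk muscle fewer cells of a type and less RNA per cell cannot be told apart.

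Tob2 and Tob1 were lower after MSC injection, without overlap between the groups, whereas Btg1, Btg2 and Btg3 overlapped. The D-gal+MSCs mean of Tob2 was 48.3% of its D-gal+PBS mean and that of Tob1 69.0%, while the group means of Btg1, Btg2 and Btg3 were 96.4%, 107% and 122% of it. So 2 of 5 members were lower without overlap and 0 were higher. Over all genes 3.19% were lower without overlap and 3.09% higher. Since the members were chosen on this contrast, nothing is read from the comparison of these shares.

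**Figure D1:**
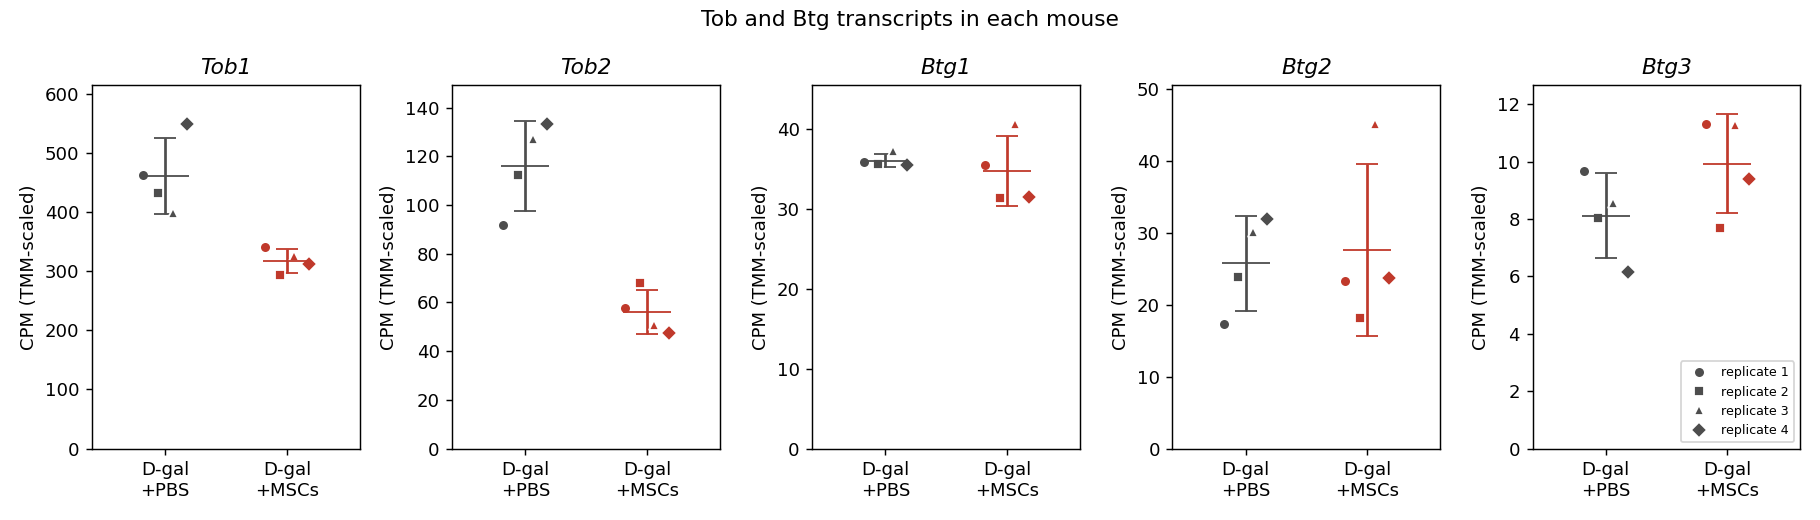
Level of each Tob and Btg transcript in CPM (vertical axes, from 0) in the 4 D-gal+PBS mice (grey) and the 4 D-gal+MSCs mice (red), with bars for the mean and 1 SD and a symbol for each replicate. All D-gal+MSCs mice lie below all D-gal+PBS mice for Tob1 (294 to 341 against 399 to 549 CPM) and Tob2 (47.6 to 68.1 against 91.6 to 133 CPM), and the groups overlap for the other 3 genes.

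Tob2, on chromosome 15, encodes the second of the long family members. It stood at 91.6, 112, 127 and 133 CPM in D-gal+PBS replicates 1 to 4 and at 57.6, 68.1, 50.9 and 47.6 CPM in D-gal+MSCs replicates 1 to 4. The lowest D-gal+PBS mouse was thus above the highest D-gal+MSCs mouse. The means were 116 ± 18.5 CPM and 56.0 ± 9.06 CPM (SD, n = 4 each), and the log2 fold change was -1.05 (SE 0.15). By the size of the log2 fold change Tob2 stood 284th among the 12171 genes, Tob1 1349th, Btg3 3438th, Btg2 8252nd and Btg1 9979th. These ranks come from the contrast the members were chosen on. The spread between mice was alike in the groups, with a coefficient of variation of 16.0% and 16.2%. The Tob2 exons share 289 bases with the opposite-strand gene Gm49476 in GENCODE vM21, which has no row in the table, and since strand use in counting is not given in the sources used here, reads of the pair cannot be told apart.

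Tob1, on chromosome 11, encodes the founding long member, which recruits Cnot7 to target mRNAs and has been described as a brake on osteoblast proliferation in mice. It stood at 463, 431, 399 and 549 CPM in the 4 D-gal+PBS mice and at 341, 294, 325 and 312 CPM in the 4 D-gal+MSCs mice. Its means were 461 ± 64.5 CPM and 318 ± 20.3 CPM (SD, n = 4 each). The log2 fold change was -0.53 (SE 0.14). D-gal+PBS replicate 4, which stands apart on the second component, had the highest value. Without that mouse the log2 fold change was -0.44, and without it and D-gal+MSCs replicate 4 together it was -0.43. Tob2 was at -0.98 and -0.91 in the same settings.

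Btg1, on chromosome 10, encodes a short member with a part in keeping mouse T cells quiescent. It stood at 35.8, 35.7, 37.3 and 35.4 CPM in the D-gal+PBS mice and at 35.5, 31.3, 40.6 and 31.5 CPM in the D-gal+MSCs mice. The D-gal+PBS values lay within 2 CPM of each other and inside the D-gal+MSCs range. The means were 36.0 ± 0.826 and 34.7 ± 4.36 CPM (SD, n = 4 each), with a log2 fold change of -0.05 (SE 0.12). RefSeq lists the copies Btg1b and Btg1c on chromosome X, neither of which has a row in the table, so reads that these copies share with Btg1 make its level uncertain.

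Btg2, on chromosome 1, encodes the short member that is induced rapidly by growth factors and by DNA damage. It stood at 17.4, 23.8, 30.1 and 31.8 CPM in the D-gal+PBS mice and at 23.3, 18.2, 45.1 and 23.7 CPM in the D-gal+MSCs mice. D-gal+MSCs replicate 3 was above every other mouse, and 3 of the 4 D-gal+MSCs mice were within the D-gal+PBS range. The means were 25.8 ± 6.59 and 27.6 ± 11.9 CPM (SD, n = 4 each), and the log2 fold change was 0.10 (SE 0.29). Leaving out D-gal+MSCs replicate 3 brought it to -0.25 and leaving out replicate 2 of the same group to 0.26, so the sign rested on single mice. Btg2 had the widest spread within groups of the 5 members, 0.48 on the log2 scale, against 0.13 for Btg1, 0.15 for Tob1, 0.23 for Tob2 and 0.27 for Btg3.

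Btg3, on chromosome 16, was the least abundant member. It stood at 9.69, 8.04, 8.57 and 6.16 CPM in the D-gal+PBS mice and at 11.3, 7.71, 11.3 and 9.41 CPM in the D-gal+MSCs mice. The D-gal+MSCs mean was the higher of the 2, at 9.93 ± 1.73 against 8.12 ± 1.48 CPM (SD, n = 4 each), but D-gal+MSCs replicate 2 was below 3 of the 4 D-gal+PBS mice. On the log2 scale Btg3 differed by 0.29 (SE 0.19). Its exons share 695 bases with the opposite-strand gene Cxadr, which has no row in the table, with the same limit as for Tob2.

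**Figure D2:**
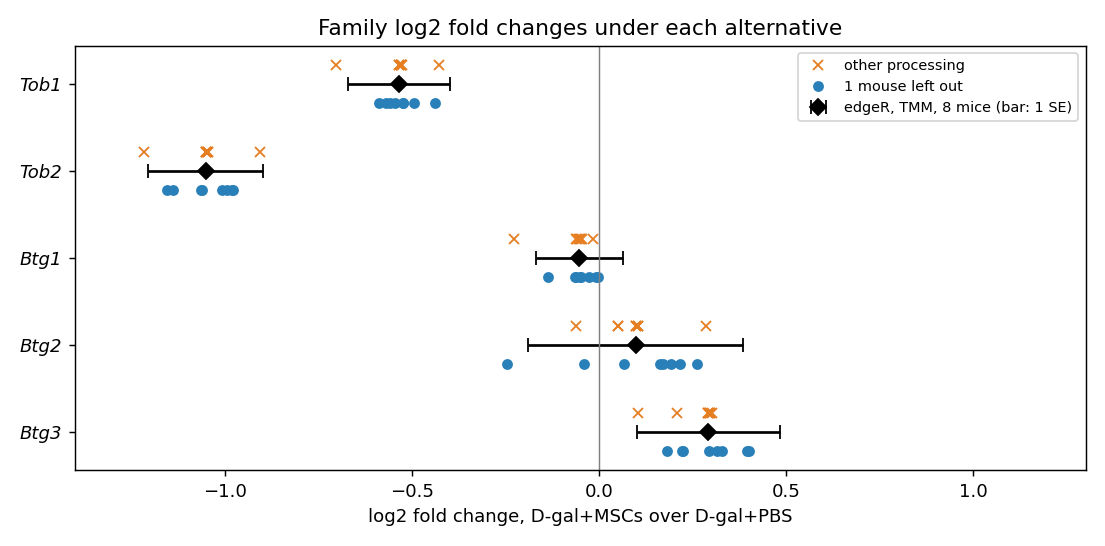
Log2 fold change of each family member (horizontal axis, D-gal+MSCs over D-gal+PBS; black, value over 8 mice with 1 SE) with the value after leaving out each mouse in turn (blue) and under other processing (orange). Every value of Tob2 lies between -1.21 and -0.91 and every value of Tob1 between -0.70 and -0.43, whereas those of Btg2 lie on both sides of 0, from -0.25 to 0.28.

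Both Tob genes stayed lower with library totals alone, with log2 fold changes of -1.21 for Tob2 and -0.70 for Tob1. With library totals alone the median over the whole table moved from 0.00 to -0.19 on the log2 scale. Relative to that median Tob2 lay at -1.03 and Tob1 at -0.52, against -1.05 and -0.53 with TMM. In the same terms Btg1 lay at -0.04, Btg2 at 0.12 and Btg3 at 0.29 with library totals, against -0.05, 0.10 and 0.29 with TMM. A change of scaling shifts all genes nearly alike, so values relative to the median are close by construction.

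To compare levels between genes, CPM was divided by the length of the exon union in GENCODE vM21, which is 2.29 kb for Tob1, 6.66 kb for Tob2, 5.28 kb for Btg1, 2.74 kb for Btg2 and 4.01 kb for Btg3. In the D-gal+PBS mice Tob1 stood at 201 ± 28.2 CPM per kb, far above Tob2 at 17.4 ± 2.78, Btg2 at 9.39 ± 2.40, Btg1 at 6.83 ± 0.157 and Btg3 at 2.02 ± 0.368 CPM per kb (SD, n = 4). Btg2 and Btg1 were neighbours in that order whose ranges over the mice overlapped. In the D-gal+MSCs mice Tob1 stood at 139 ± 8.88, Btg2 at 10.1 ± 4.36, Tob2 at 8.41 ± 1.36, Btg1 at 6.58 ± 0.826 and Btg3 at 2.47 ± 0.431 CPM per kb (SD, n = 4). There the level per kb of Tob2 lay within the range of Btg2, from 6.63 to 16.4, in every mouse. The summed level of the family was 214 to 280 CPM per kb in the D-gal+PBS mice and 153 to 177 CPM per kb in the D-gal+MSCs mice. Tob1 made up 84.8 ± 2.42% and 83.5 ± 2.12% of that sum and Tob2 7.39 ± 1.23% and 5.09 ± 1.09% (SD, n = 4 each). These shares depend on the transcript lengths in use, which were not measured.

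Whether members varied together was asked within the groups, because deviations from the group means were not used to choose them. No pair of the 10 passed an exact two-sided permutation test of mice within groups (576 arrangements) after Benjamini-Hochberg adjustment over the pairs. Btg1 and Btg2 had the highest Pearson r of the pairs, with r = 0.76 (exact permutation p = 0.0799, adjusted 0.382) and rho = 0.43 (exact permutation p = 0.37, adjusted 0.856) over 8 mice. It rested on few mice, as r was 0.09 without the 2 mice farthest from the median of Btg1. Tob2 and Btg3 went in opposite directions, with r = -0.69 (exact permutation p = 0.0972, adjusted 0.382) and rho = -0.62 (exact permutation p = 0.153, adjusted 0.764), and r was -0.04 without the 2 mice farthest from the median of Tob2 and 0.07 with library totals alone. Btg1 and Btg3 had r = 0.60 (exact permutation p = 0.115, adjusted 0.382) and rho = 0.71 (exact permutation p = 0.0764, adjusted 0.764), and r was 0.49 without the 2 farthest mice. Tob1 and Tob2, both lower in every D-gal+MSCs mouse, had r = 0.00 (exact permutation p = 0.991) and rho = -0.14 (exact permutation p = 0.771). This r moved to -0.67 without D-gal+PBS replicate 4, to -0.52 without the 2 farthest mice and to 0.48 with library totals alone, so it rested on single mice and on the scaling. The other 6 pairs had r between -0.19 and 0.24, with adjusted exact permutation p of 0.963 each. Of these, Tob1 and Btg3 went from r = -0.18 to 0.96 without the 2 farthest mice and to 0.80 without D-gal+PBS replicate 4 (exact permutation p = 0.0347 before adjustment). With library totals alone all 10 pairs had a positive r, from 0.07 to 0.80.

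**Figure D3:**
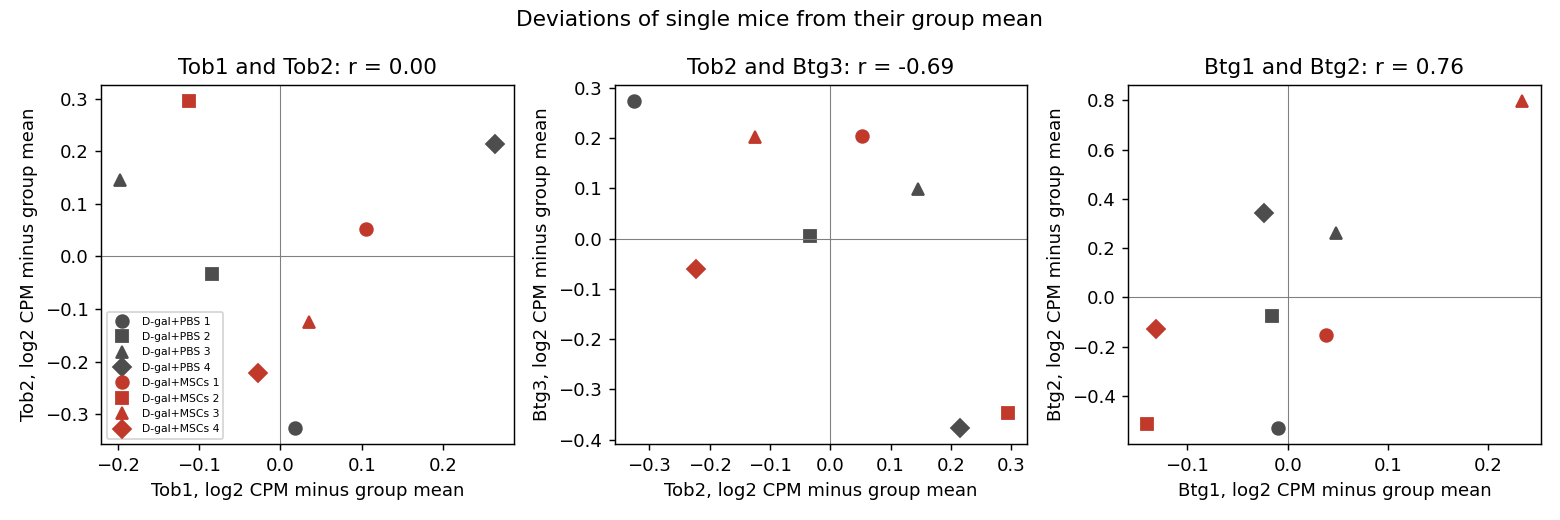
Deviation of each mouse from its group mean in log2 CPM for 3 pairs of members (grey, D-gal+PBS; red, D-gal+MSCs; symbols, replicates). Points scatter without a trend for Tob1 and Tob2 (r = 0.00), fall for Tob2 and Btg3 (r = -0.69) and rise for Btg1 and Btg2 (r = 0.76), where D-gal+MSCs replicate 3 sits alone at the upper right.

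The genes whose log2 CPM followed a member most closely over all 8 mice were listed by Pearson r, as a description. For Tob2 these were Derl1 (r = 0.99), Hacd3 (0.97), Apln (0.97), Fam83d (0.96) and Tdrp (0.96). Derl1 encodes a channel of endoplasmic reticulum quality control, Hacd3 an enzyme of very long chain fatty acid synthesis and Apln the peptide apelin. All 5 had negative log2 fold changes, from -0.26 for Derl1 to -1.12 for Fam83d. Since they were picked for following Tob2 over both groups, this shared direction is given by the choice and nothing is read from it. The r of deviations within the groups was 0.95 for Derl1 and 0.74 for Tdrp. For Tob1 they were Btd (0.98), Tpd52l2 (0.97) and Sub1 (0.96), for Btg1 Gfra2 (0.96), Nrarp (0.95) and Gch1 (0.91), for Btg2 Clta (0.95), Higd1b (0.93) and Ccn1 (0.92), and for Btg3 Lpcat1 (0.97), Gucy1b1 (0.96) and Lpar6 (0.96). No gene appeared for more than 1 member. With 12171 genes and 8 points such values of r are the top of a long list.

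Genes linked to the family by its biochemistry were tested with edgeR over the whole table. At an adjusted p under 0.05 edgeR called 0% of the 12171 genes in either direction, the smallest adjusted p being 0.0512 (Myh1), while 1308 genes had an unadjusted p under 0.05, DESeq2 called 300 and limma-voom called 0. Counts below therefore use a looser threshold, an unadjusted edgeR p under 0.05 together with a log2 fold change of 0.5 or more in size, which 373 genes (3.06%) passed as lower and 458 (3.76%) as higher in the D-gal+MSCs mice. With library totals alone the split was 761 lower and 201 higher. Of the members 2 of 5, Tob1 and Tob2, met it as lower and 0 as higher, which repeats the contrast they were chosen on. Of 156 measured linked genes, 16 were lower and 3 higher, and their median log2 fold change was -0.01 against 0.00 over all genes.

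The deadenylation and decay machinery that the family recruits gave no call outside its RNA-binding adaptors. Of the 12 CCR4-NOT genes 0 passed the looser threshold in either direction, with a median log2 fold change of -0.02 for the list, a count that says little beside the 3.06% and 3.76% of all genes. The deadenylase Cnot6l, named after its values were seen, was higher without overlap, at 26.0 to 34.9 against 22.8 to 25.9 CPM, with a log2 fold change of 0.24 (SE 0.13, edgeR adjusted p = 0.509). The catalytic subunits Cnot7 and Cnot8, picked for their direct contact with the family after their values were seen, stood at 58.4 to 63.6 and 47.8 to 50.2 CPM in the D-gal+PBS mice. In the D-gal+MSCs mice they stood at 56.4 to 65.3 and 43.5 to 47.9 CPM, overlapping in both genes. Of 13 genes for poly(A)-binding proteins and other tail-acting enzymes and of 12 for decapping and decay, 0 passed, with medians of 0.05 and 0.03. Among 16 RNA-binding adaptors 1 was higher, Cpeb4, which encodes a cytoplasmic polyadenylation element-binding protein. Cpeb4 stood at 1.59 to 3.39 CPM in the D-gal+PBS mice and at 146, 125, 0.8 and 136 CPM in D-gal+MSCs replicates 1 to 4, so that replicate 3 was below every D-gal+PBS mouse. Its log2 fold change was 5.53 (SE 1.39, edgeR adjusted p = 0.243), and it missed the looser threshold with limma-voom (4.13) and with replicate number as a block (4.85).

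Among 6 measured binding partners of Btg proteins, 1 was lower, Smad3, which transmits TGF-beta signals, at 99.3 ± 16.7 against 141 ± 45.0 CPM (SD, n = 4 each). Its log2 fold change was -0.51 (edgeR adjusted p = 0.439). It missed the looser threshold when D-gal+PBS replicate 2 (-0.36) or 4 (-0.37), or else replicate 1 (-0.43) or 3 (-0.45) of the D-gal+MSCs mice, was left out, and also with median-of-ratios size factors, DESeq2, limma-voom and the replicate block. The groups overlapped for Smad3. Among the partners Rb1 was higher without overlap and Prmt1 and Nfe2l2 were lower, against 3.09% and 3.19% of all genes. These partners, named after their values were seen, did not pass the looser threshold. Their log2 fold changes were 0.39, -0.26 and -0.23 (edgeR adjusted p = 0.269, 0.426 and 0.474). In the BMP and SMAD list 3 of 18 genes were lower and 1 higher at the looser threshold, with a median of 0.00. Over all genes 3.06% were lower and 3.76% higher at that threshold. Counts this small, here and among the 6 binding partners, say little beside these shares. Bmp2, a ligand, was at 4.44 ± 0.738 CPM in the D-gal+PBS mice and 2.19 ± 0.334 CPM in the D-gal+MSCs mice (SD, n = 4 each), without overlap, with a log2 fold change of -1.02 (SE 0.24, edgeR adjusted p = 0.151). Id1, a target of BMP signalling that blocks basic helix-loop-helix factors, was at 56.8 ± 7.26 and 26.3 ± 11.7 CPM (SD, n = 4 each), also without overlap, with a log2 fold change of -1.11 (SE 0.30, edgeR adjusted p = 0.224). The ligand Bmp6 was higher, at 32.9 ± 11.6 against 20.1 ± 6.06 CPM (SD, n = 4 each), with a log2 fold change of 0.71 (SE 0.28, edgeR adjusted p = 0.417). Bmp6 missed the looser threshold when D-gal+PBS replicate 2 (0.70) or 4 (0.52), or else replicate 1 (0.69) or 3 (0.45) of the D-gal+MSCs mice, was left out, and with library totals alone (0.53).

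Few calls came from the p53 and FoxO genes, pathways known to act upstream of Btg1, Btg2 and Btg3, and from genes of G1 and S phase. Counts this small say little beside the 3.06% lower and 3.76% higher of all genes. Of 19 p53 genes 0 passed the looser threshold, and the median on the log2 scale was 0.05. Of 19 FoxO genes 2 were lower, Irs2, an adaptor of the insulin receptor, with -0.83 (SE 0.28, edgeR adjusted p = 0.325), and Ddit4, an inhibitor of mTORC1, with -0.70 (SE 0.27, edgeR adjusted p = 0.394). Irs2 missed the threshold without D-gal+MSCs replicate 4 (-0.75) and with both mice that stood apart left out (-0.53), and Ddit4 when replicate 2 of the D-gal+PBS mice (-0.51) or replicate 4 of the D-gal+MSCs mice (-0.50) was left out. Of 18 genes of G1 and S phase 1 was higher, Rbl1, which encodes the pocket protein p107, at 4.93 ± 1.26 against 3.26 ± 0.547 CPM (SD, n = 4 each), with a log2 fold change of 0.60 (SE 0.25, edgeR adjusted p = 0.418). Rbl1 missed the threshold when D-gal+PBS replicate 3 (0.56) or 4 (0.52), or else replicate 1 (0.49) or 4 (0.48) of the D-gal+MSCs mice, was left out, with both mice left out (0.41) and with library totals alone (0.39). The list had 25 genes, of which Mki67, Top2a, Cdk1, Ccnb1, Ccnb2, Ccne1 and E2f1, most of them markers of dividing cells, were not in the table.

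**Figure D4:**
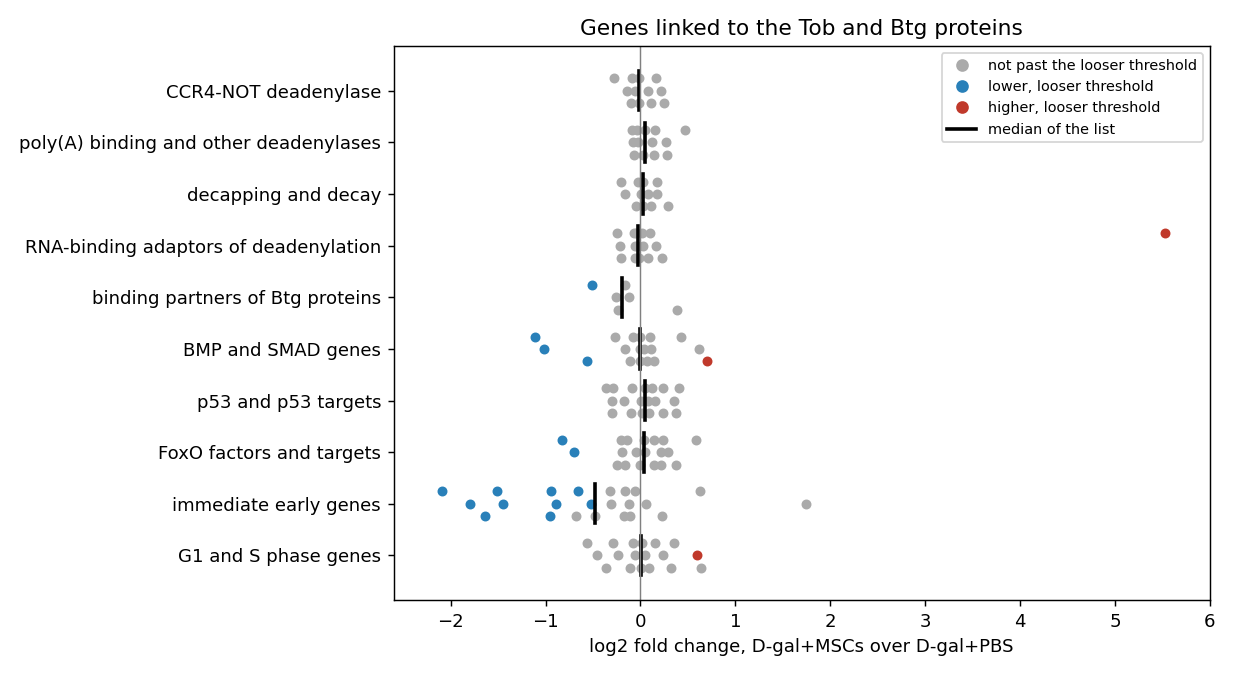
Log2 fold change (horizontal axis, D-gal+MSCs over D-gal+PBS) of every measured gene on the 10 lists linked to the Tob and Btg proteins, each point a gene, coloured where it passed the looser threshold, with a black bar for the median of the list. The CCR4-NOT, poly(A), decay and p53 lists hold no coloured point, 10 of the 23 immediate early genes are lower, and Cpeb4 stands alone at 5.53.

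Immediate early genes, the class to which Btg2 belongs, gave the highest count of calls among the 10 lists. The lists were chosen with earlier results of these data known, so this count is a description and not a test of the class. Of 23 measured, 10 were lower at the looser threshold (43.5%, against 3.06% of all genes) and 0 higher, with a median log2 fold change of -0.48. Without overlap 6 were lower and 1, Egr2, was higher, against 3.19% and 3.09% of all genes. The smallest edgeR adjusted p on the list was 0.0889, so none passed at 0.05. Klf2, which encodes a zinc finger factor that endothelial cells raise under flow, stood at 84.0, 101, 125 and 132 CPM in the D-gal+PBS mice and at 28.0, 32.2, 59.3 and 22.8 CPM in the MSC-injected animals. Its log2 fold change was -1.63 (SE 0.29, edgeR adjusted p = 0.0889). Klf4, a related zinc finger factor, stood at 39.0, 40.1, 48.2 and 42.9 CPM and at 19.0, 16.5, 19.8 and 6.93 CPM. Its log2 fold change was -1.45 (SE 0.27, edgeR adjusted p = 0.0957). The other 8 lower genes were Fosl2, Nr4a1, Nr4a2, Nr4a3, Klf6, Klf10, Csrnp1 and Jund, with log2 fold changes from -2.09 (Nr4a3) to -0.53 (Klf6).

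Btg2 itself, at 0.10 (SE 0.29), was not tested against these genes, and 13 of the 23 did not pass either. Fos, Jun, Junb, Egr1, Atf3 and Dusp1 were among these 13. D-gal+MSCs replicate 3, the mouse with the highest Btg2, also had the highest Egr1, 82.8 CPM against 4.35 to 12.97 CPM in the other 7 mice. Its Fos level of 24.3 CPM was exceeded only by the 26.1 CPM of D-gal+PBS replicate 4, which had the second highest Btg2. The other 6 mice had Fos at 0.191 to 7.88 CPM. Egr1 and Fos were picked after their values were seen, and neither passed the looser threshold between the groups, with log2 fold changes of 1.75 (SE 0.98) and -0.31 (SE 1.18).

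**Figure D5:**
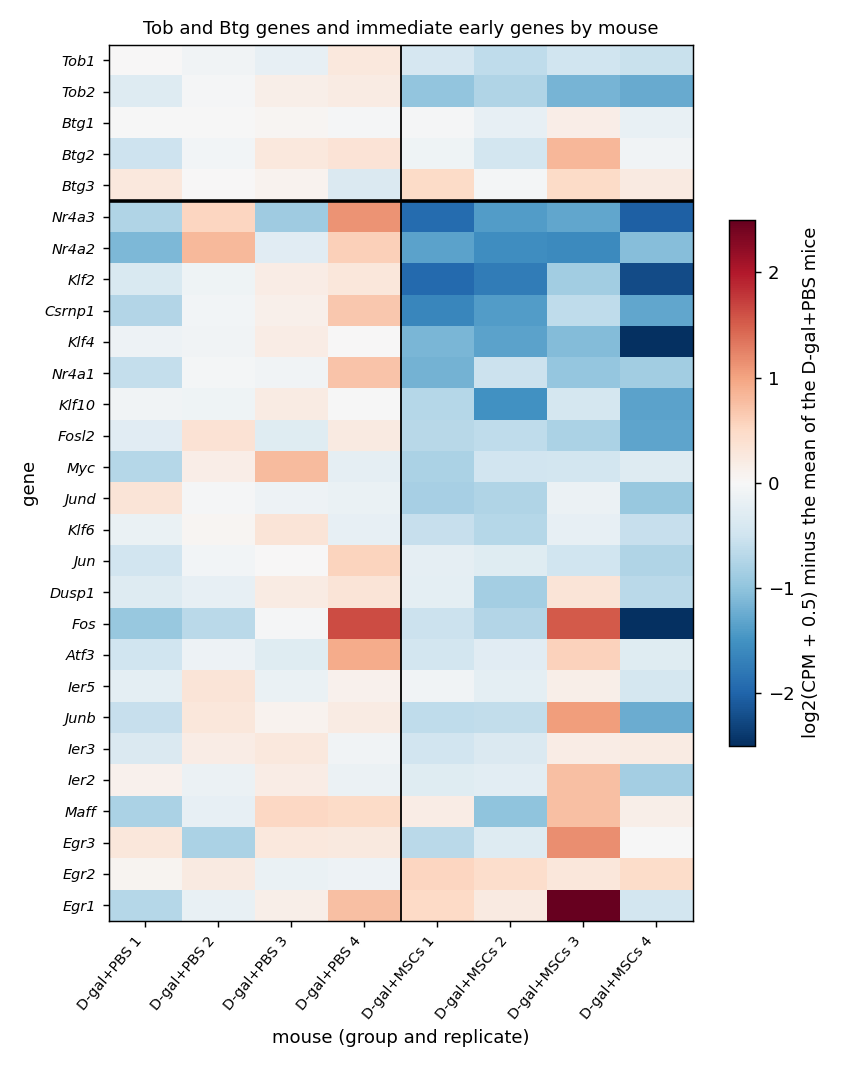
Heat map of log2(CPM + 0.5) minus the D-gal+PBS mean for the 5 Tob and Btg genes (top) and the 23 immediate early genes (below, ordered by log2 fold change) in each of the 8 mice, with colours capped at 2.5 in either direction. Tob1 and Tob2 are lower in all 4 D-gal+MSCs mice, like Klf2 and Klf4, whereas Btg2 is highest in D-gal+MSCs replicate 3 together with Egr1.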

How the data were processed

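Total RNA was taken from the quadriceps of 8 mice, 1 library each, with 4 D-gal+PBS and 4 D-gal+MSCs mice. The authors deposited 1 table of raw counts per gene, and the submitters' processing notes name HISAT2 and the build GRCm39. The counting tool, the annotation, the filter behind the 12171 genes and the use of strand were not given in the sources used here. Counts were scaled by TMM and fitted with edgeR's quasi-likelihood test (robust, group only) over all genes, with Benjamini-Hochberg adjustment. SEs are the log2 fold change divided by the root of F, and log2 CPM used a prior count of 2. Alternatives were DESeq2, limma-voom, other scalings, filters, a replicate block and leaving out each mouse. Tools were R 4.3.3, edgeR 4.0.16, limma 3.58.1 and DESeq2 1.42.0.

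The members and gene lists were chosen with earlier results of these data known. The genes named were all members, up to 2 higher and 2 lower genes of each list past the looser threshold by smallest p, and the 3 (for Tob2, 5) genes with the highest r. The fit was tested on simulated data. No 2 libraries of a group agreed within sampling noise. Replicate numbers are not stated to pair mice across groups. Promoter sequences and symbols came from RefSeq (GRCm38.p6) and exon lengths from GENCODE vM21, another build than GRCm39, from which no coordinates were carried over. Reads of the injected human cells were not separated. Each group holds separate mice, so the edgeR p-values set group differences against the variation between these animals.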

Additional observations from a re-analysis of the deposited data

How the results depend on the processing

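Tob2 and Tob1 kept their direction under all 16 alternatives each, between -1.21 and -0.91 and between -0.70 and -0.43 on the log2 scale. As the groups did not overlap for either gene, leaving out mice could hardly change the direction. Only the size of the difference is informative in those settings. With library totals alone Tob1 moved to -0.70, Btg1 to -0.23, the lower and higher genes of the table to 761 and 201, and the higher linked genes from 3 to 1. Asking for a log2 fold change of 1 or more in size left 95 lower and 152 higher genes, 7 lower and 1 higher linked genes and 5 lower immediate early genes. Leaving out each mouse gave 1 to 4 higher linked genes, 13 to 19 lower ones and 9 to 12 lower immediate early genes. With replicate 4 of both groups left out at once, chosen after seeing the data, 5 linked genes were higher. The mice share replicate numbers but nothing in the labels pairs them, and deviations of same-numbered mice correlated at 0.00, 0.16, 0.10 and 0.22. With the replicate block 426 genes were lower and 487 higher, 15 linked genes were lower and 2 higher, and Tob2 and Tob1 stood at -1.05 and -0.53. The spread of Btg1 between the D-gal+PBS mice, a coefficient of variation of 2.29%, is no larger than counting error at its counts of 1336 to 1499. Which limit held for the other members was not tested.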
